A study of Drosophila melanogaster with 4 samples.

Results

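The genes described here encode larval, prepupal, pupal and Tweedle cuticle proteins of Drosophila melanogaster. Members were the protein-coding genes whose symbol begins with Lcp, Ccp84A, Twdl, Acp65A, Pcp or Edg, and 31 of the 11880 genes in the count table met this rule. They were 5 Lcp genes outside the 65A group (Lcp1, Lcp2, Lcp3, Lcp4 and Lcp9), 9 Lcp65A genes, 4 Ccp84A genes, 10 Tweedle genes, Edg78E, Edg91 and Pcp. No listed gene had a symbol beginning with Acp65A. The Ensembl annotation holds 52 genes that meet the rule, and the other 21, among them Acp65Aa, Edg84A and 15 Tweedle genes, were not analysed here. The pseudogene TwdlU was left out by the rule.

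The insect cuticle is laid down by the epidermis as chitin fibres embedded in secreted proteins, and each moult replaces the proteins of one stage with those of the next. Most cuticle proteins, the Lcp and Ccp84A products among them, carry the Rebers-Riddiford domain, which binds chitin, whereas Tweedle proteins have a conserved domain of their own and can alter body shape when mutated. Pulses of the steroid hormone ecdysone and the nuclear receptors it induces time the switches between these genes.

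RNA came from dissected larval heads, with poly-A selection, and each of the 4 groups was 1 library. The Glioma group combined 2 UAS constructs, dEGFR[L] for the epidermal growth factor receptor and dp110[CAAX] for a membrane-tethered PI3K catalytic subunit. The Ca-alpha1T RNAi group carried UAS-Ca-alpha1T-RNAi in addition, against a T-type calcium channel, and the slo RNAi group carried UAS-Slo-RNAi, against a calcium-activated potassium channel. The Control group had none of these. What all groups shared was the glial driver repo-Gal4, the membrane-bound red fluorescent protein UAS-myrRFP and the temperature-sensitive repressor tub-Gal80[ts], with 3 days of egg laying at 25 °C and 5 days at 29 °C before dissection. The driver acts in glia, and a head sample holds the epidermis and other tissues besides. The number of animals in a library is not given in the labels, which place all 4 libraries in the same batch.

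Libraries held between 31594447 and 38826243 counts. All 7 glial markers fixed in the design were listed in every library, at 12.8 CPM or more (TMM-scaled counts as parts of the library total), and all 6 neuronal markers at 32.2 CPM or more. The 10 epidermal markers were also listed, from 0.331 CPM for sha in Control to 416 CPM for the highest in Control. The RNAi target Ca-alpha1T had 16.6 CPM in the library labelled Ca-alpha1T RNAi, 17.8 in that labelled slo RNAi, 19.1 in Glioma and 12.9 in Control, and its log2 ratio for Ca-alpha1T RNAi over Glioma was −0.20, not called. The target slo had 1154, 753, 1208 and 902 counts in these libraries, and its ratio for slo RNAi over Glioma was −0.45, also not called. How far either knockdown went in glia was not tested. The construct genes stood at 962 CPM with Ca-alpha1T RNAi, 651 with slo RNAi, 897 in Glioma and 182 in Control for Egfr, and at 880, 373, 903 and 98.6 CPM for Pi3K92E in those libraries. The glial gene repo, whose promoter sequence drives the Gal4, stood at 40.9, 38.2, 36.6 and 16.7 CPM. Since each group was 1 library, no difference below has a replicate check, and conditions were compared without a test. The words higher and lower are used of ratios of at least 2-fold whose 95% interval for counting error leaves out a log2 ratio of 0. Such a gene also had to be detected, meaning that 1 or both of the libraries compared held 10 counts or more. The intervals cover counting error only and hold no spread between animals or libraries. Since PCR copies are not independent molecules, the intervals may be too narrow even for counting error.

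A few larval genes made up nearly all of the cuticle transcripts counted. Lcp4, a late larval cuticle gene, was the most abundant member in every library at 9976 TPM with Ca-alpha1T RNAi, 20749 with slo RNAi, 20422 in Glioma and 16247 in Control (the authors' TPM, a level per length). It ranked 4, 2, 2 and 3 among all listed genes in that order of libraries. The 7 genes Lcp1, Lcp2, Lcp3, Lcp4, Lcp9, Lcp65Ab1 and Lcp65Ab2 together held 92.5% of the summed TPM of the 31 members with Ca-alpha1T RNAi, 99.3% with slo RNAi, 98.3% in Glioma and 98.9% in Control. The next gene per length was Lcp65Ag1 at 649 TPM with Ca-alpha1T RNAi and at 110 TPM with slo RNAi, Lcp65Ag3 at 240 TPM in Glioma and Pcp at 237 TPM in Control. At the low end 6 members, Edg78E, TwdlF, TwdlL, TwdlM, TwdlO and TwdlV, had fewer than 10 counts in 1 or more libraries. No listed gene was at 0 in any library.

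**Figure D1:**
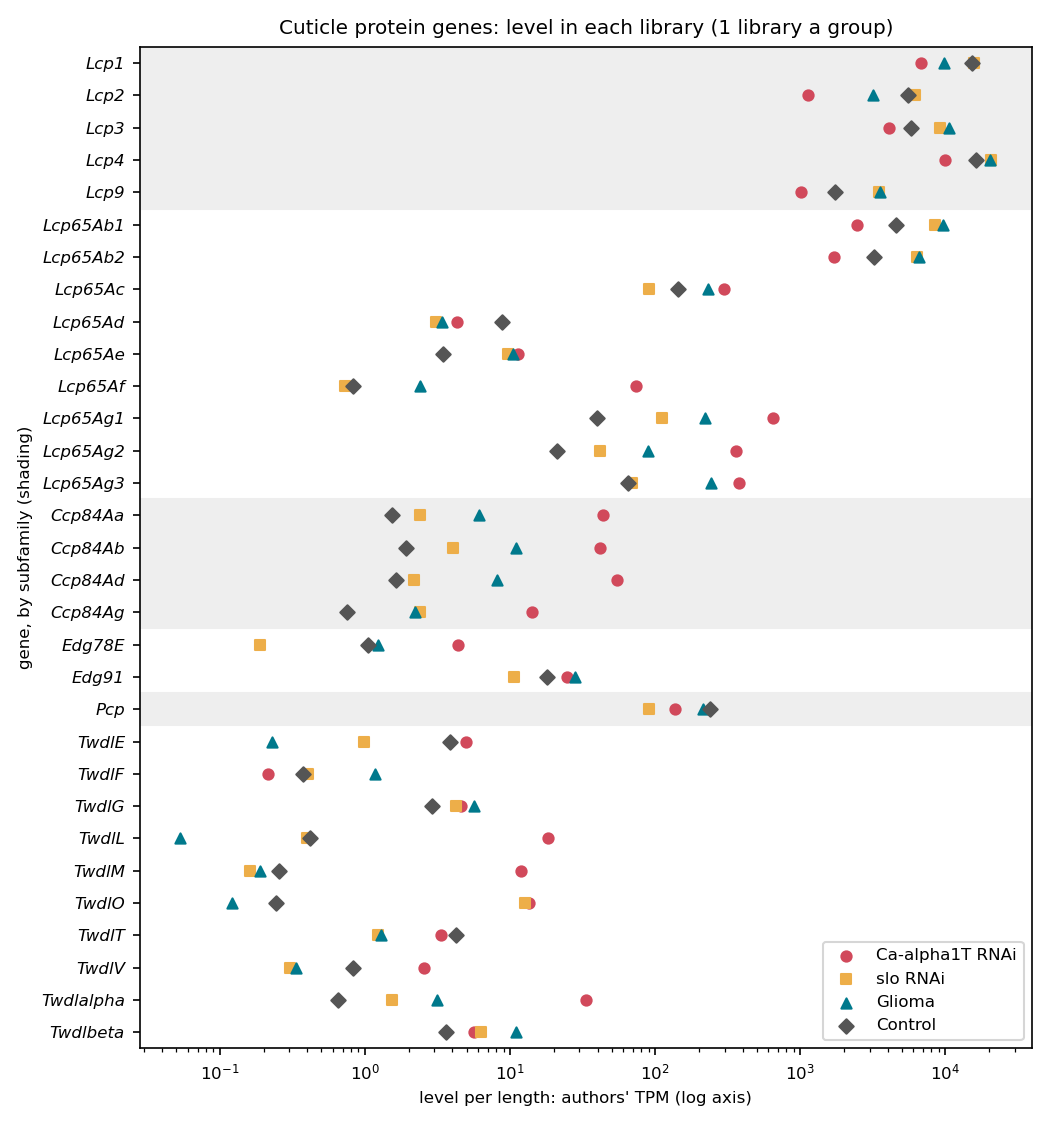
Level of each of the 31 members per length (the authors' TPM, log axis) in the 4 libraries, 1 point a library, with genes grouped by subfamily. The 7 abundant larval genes lie at 1015 TPM or more in every library and are lowest with Ca-alpha1T RNAi, while the Ccp84A genes are highest there.

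The family as a whole was lowest with Ca-alpha1T RNAi. Members took 1.12% of all counts with Ca-alpha1T RNAi, 2.89% with slo RNAi, 2.73% in Glioma and 2.19% in Control, and their summed level was 10201, 30813, 30015 and 20614 CPM in the same order. The scarcer subfamilies had another order. The 4 Ccp84A genes summed to 80.9 CPM with Ca-alpha1T RNAi, 8.03 with slo RNAi, 20.3 in Glioma and 3.56 in Control. The 10 Tweedle genes summed to 73.6 CPM with Ca-alpha1T RNAi, against 23.5 with slo RNAi, 23.6 in Glioma and 16.4 in Control. Of the 31 genes, 14 had their highest scaled count with Ca-alpha1T RNAi, 3 with slo RNAi, 12 in Glioma and 2 in Control. Each member was called in 1 or more of the 6 pairwise comparisons. The ratio of a member's highest to its lowest library ran from 2.42 to 212 with a median of 5.92. Neither figure was computed over all genes, of which 10.2% to 15.9% of those detected were called in each single comparison. In bulk RNA, fewer cells of a type and less RNA per cell cannot be told apart.

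**Figure D2:**
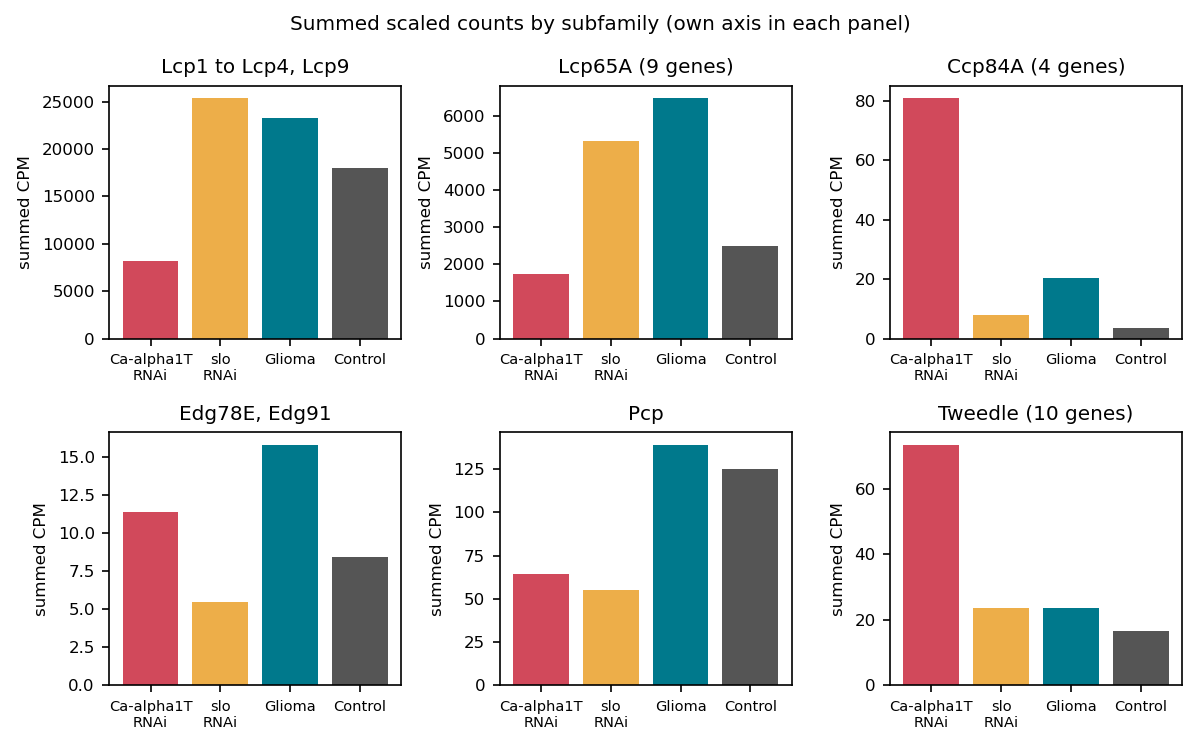
Summed scaled counts (CPM) of each subfamily in the 4 libraries, with a separate axis from 0 in each panel and 1 bar a library. The 5 Lcp genes outside 65A and the 9 Lcp65A genes sum lowest with Ca-alpha1T RNAi, at 8228 and 1743 CPM, whereas the Ccp84A and Tweedle sums are highest there.

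In Glioma against Control most members were higher, among them all 4 Ccp84A genes and 7 of 9 Lcp65A genes. Of the 29 detected members 17 were higher and 4 lower, against a background of 10.1% of detected genes higher, 5.81% lower and 15.9% either over the whole table. Their log2 ratios had a median of 1.33, beside 0.0019 for all detected genes. The genes called lower were Lcp65Ad, TwdlE, TwdlL and TwdlT. Scaling by total counts in place of TMM moved the median of all genes by −0.22, and the member median was then 1.10.

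With Ca-alpha1T RNAi against Glioma members were called in both directions. The 5 Lcp genes outside 65A were all lower and the 4 Ccp84A genes all higher, while other subfamilies were mixed. Of the 10 Tweedle genes 6 were higher and 2 lower, of the 9 Lcp65A genes 3 were higher and 2 lower, Edg78E was higher and Pcp lower. In total 14 of 31 members were higher and 10 lower, against 4.93% higher, 6.88% lower and 11.8% either among all detected genes, and the member median of 0.18 lay close to that of all genes at −0.010. Of the 17 members that were higher in Glioma against Control, 8 were higher again with Ca-alpha1T RNAi, 6 were lower and 3 were not called. These comparisons share the Glioma library, and the share of all genes with such paired calls was not computed. Of the members' calls with Ca-alpha1T RNAi against Glioma 58.3% were higher, beside 41.7% of the calls over all genes. On the authors' FPKM these shares were 68.4% for members and 61.3% for all genes, and on their TPM 70.0% and 80.2%.

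With slo RNAi against Glioma the Lcp65A, Ccp84A and Edg genes held 10 of the 13 lower calls, and the abundant larval genes were not called. Of 30 detected members 3 were higher and 13 lower, where 4.43% of all detected genes were higher, 6.8% lower and 11.2% either. The median was −0.49 for members and −0.012 for all genes. The 3 higher genes, TwdlE, TwdlL and TwdlO, were also higher with Ca-alpha1T RNAi against Glioma, a comparison that shares the Glioma library. The 8 genes Ccp84Aa, Ccp84Ab, Ccp84Ad, Edg78E, Lcp65Af, Lcp65Ag1, Lcp65Ag2 and Twdlalpha had opposite calls in the RNAi libraries when set against Glioma. They were higher for Ca-alpha1T and lower for slo. The share of all genes with the same or with opposite calls in the RNAi libraries was not computed.

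**Figure D3:**
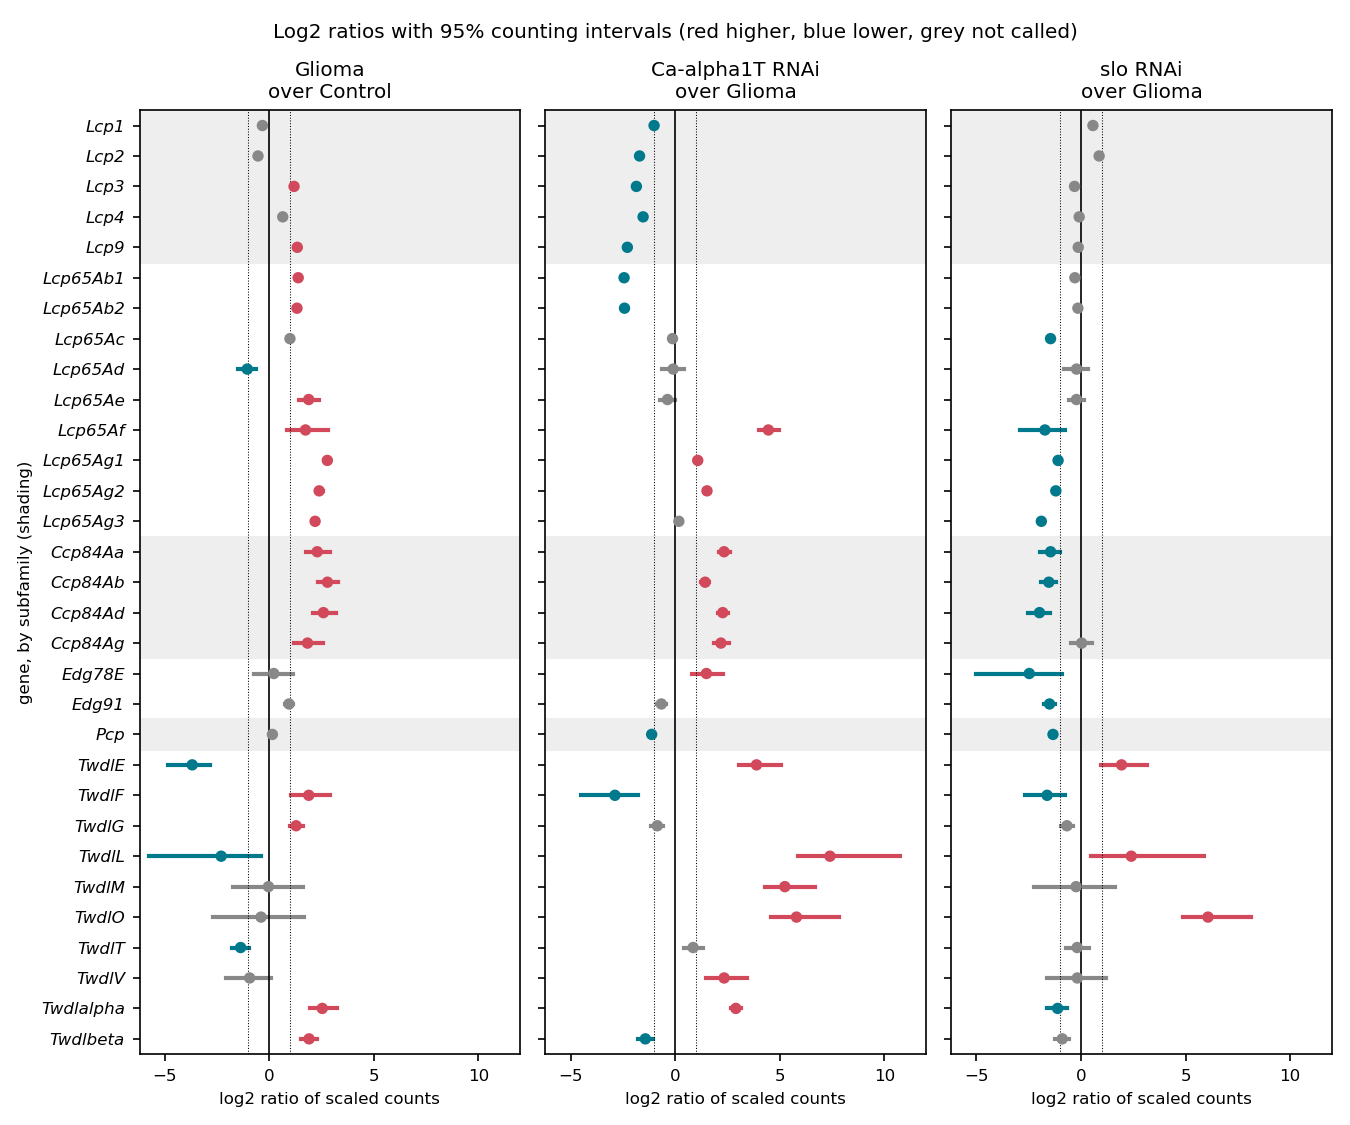
Log2 ratios of scaled counts for the 31 members in 3 comparisons, with 95% counting intervals as bars and dotted lines at 2-fold; red genes are called higher, blue lower, and grey genes were not called or not detected. The 5 Lcp genes at the top lie below 0 with Ca-alpha1T RNAi over Glioma, from −2.29 for Lcp9 to −1.01 for Lcp1, and the Ccp84A genes lie between 1.44 and 2.34.

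Set against Control, the Ca-alpha1T RNAi library had 15 members higher and 5 lower of 31, against 6.05% higher, 4.15% lower and 10.2% either among all detected genes, with a member median of 0.87. The slo RNAi library had 11 higher and 6 lower of 30, against 7.31%, 5.95% and 13.3%, with a member median of 0.58. Higher calls made up 75.0% of the members' calls with Ca-alpha1T RNAi, beside 59.3% over all genes, and on the authors' TPM 88.2% beside 70.4%. With slo RNAi they made up 64.7% beside 55.2%, and on FPKM 42.9% beside 33.5%. On TPM slo RNAi had 4 members higher and 4 lower, and 35.9% of all calls were higher. In Ca-alpha1T RNAi against slo RNAi, 16 members were higher and 7 lower of 31, against 5.66%, 4.74% and 10.4%, with a median of 1.05. The 7 lower genes were Lcp1, Lcp2, Lcp3, Lcp4, Lcp9, Lcp65Ab1 and Lcp65Ab2, the most abundant members.

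Lcp1, Lcp2, Lcp3 and Lcp4 encode major proteins of the late larval cuticle and lie together within 8381 bases on chromosome arm 2R, at 8430115 to 8438495 (dm6), with Lcp1 and Lcp2 on the minus strand and Lcp3 and Lcp4 on the plus strand. Lcp1 stood at 2475 CPM with Ca-alpha1T RNAi, 7374 with slo RNAi, 4972 in Glioma and 6230 in Control. Lcp2 stood at 512 CPM with Ca-alpha1T RNAi, 3034 with slo RNAi, 1666 in Glioma and 2416 in Control. Both were highest with slo RNAi and lowest with Ca-alpha1T RNAi, and Glioma lay below Control.

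Lcp3 and Lcp4 had another order, with the top scaled count in Glioma. On the authors' TPM, Lcp4 was instead highest with slo RNAi, at 20749 against 20422 in Glioma. Lcp3 stood at 1405 CPM with Ca-alpha1T RNAi, 4089 with slo RNAi, 5074 in Glioma and 2227 in Control. Lcp4 stood at 3574 CPM with Ca-alpha1T RNAi, 9719 with slo RNAi, 10334 in Glioma and 6598 in Control. In Glioma against Control the log2 ratio was 1.19 (1.18 to 1.20) for Lcp3, which was called, 0.65 for Lcp4, −0.33 for Lcp1 and −0.54 for Lcp2. With Ca-alpha1T RNAi against Glioma it was −1.01 (−1.02 to −0.99) for Lcp1, −1.70 for Lcp2, −1.85 for Lcp3 and −1.53 for Lcp4. The Lcp1 value sits at the 2-fold limit, and on total counts it was −0.73 and not called.

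The mix of these 4 transcripts, which does not depend on the library scaling, differed as well. Lcp2 made up 6.43% of their summed counts with Ca-alpha1T RNAi (exact 95% interval 6.34 to 6.52), 12.5% with slo RNAi, 7.56% in Glioma and 13.8% in Control. Lcp1 made up 31.1% with Ca-alpha1T RNAi (30.9 to 31.2), 30.4% with slo RNAi (30.3 to 30.6), 22.6% in Glioma (22.5 to 22.6) and 35.7% in Control (35.5 to 35.8). The share of Lcp2 was thus lower with Ca-alpha1T RNAi and in Glioma than in either of the remaining libraries, beyond counting error. Lcp1 and Lcp2, and likewise Lcp3 and Lcp4, are close copies, and how their reads were divided is uncertain.

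Lcp9, a short larval cuticle gene that lies elsewhere on 2R at 24779979 to 24780428, had its highest level in Glioma, like Lcp3. It stood at 262 CPM with Ca-alpha1T RNAi, 1163 with slo RNAi, 1276 in Glioma and 503 in Control, giving log2 ratios of 1.34 for Glioma over Control and −2.29 (−2.32 to −2.25) for Ca-alpha1T RNAi over Glioma. The antisense RNA gene asRNA:CR44067 overlaps it and had 8 counts with Ca-alpha1T RNAi, 24 with slo RNAi, 42 in Glioma and 21 in Control, against 9104, 35068, 45054 and 19761 for Lcp9.

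The 9 Lcp65A genes encode small cuticle proteins of 99 to 109 residues and lie within 19575 bases of arm 3L, at 6130386 to 6149960. Lcp65Ab1 and Lcp65Ab2 were far above the rest per length, and highest in Glioma. Lcp65Ab1 stood at 668 CPM with Ca-alpha1T RNAi, 2960 with slo RNAi, 3628 in Glioma and 1388 in Control, and Lcp65Ab2 at 464, 2237, 2483 and 989 CPM in the same order. Both were higher in Glioma against Control, at 1.39 and 1.33, and lower with Ca-alpha1T RNAi against Glioma, at −2.44 (−2.46 to −2.42) and −2.42 (−2.44 to −2.40). Lcp65Ab1 took 59.0% of the pair's counts with Ca-alpha1T RNAi, 57.0% with slo RNAi, 59.4% in Glioma and 58.4% in Control, so the pair kept nearly the same mix. They are close copies, as are the Lcp65Ag genes, and the sources used here do not say how reads were divided between copies.

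Lcp65Af had 877 counts with Ca-alpha1T RNAi, 10 with slo RNAi, 40 in Glioma and 13 in Control. Of the Lcp65A genes it had the largest ratio between Ca-alpha1T RNAi and each of the other libraries, with log2 ratios of 4.46 (4.02 to 4.97) over Glioma, 6.18 (5.36 to 7.31) over slo RNAi and 6.19 (5.47 to 7.17) over Control. Glioma stood above Control, at 1.73 (0.84 to 2.80), and slo RNAi below Glioma, at −1.73 (−2.94 to −0.75).

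The copies Lcp65Ag1, Lcp65Ag2 and Lcp65Ag3 were each highest with Ca-alpha1T RNAi and lowest in Control. Lcp65Ag1 stood at 220 CPM with Ca-alpha1T RNAi, 48.5 with slo RNAi, 104 in Glioma and 15.1 in Control. Lcp65Ag2 had 128, 19.3, 44.5 and 8.48 CPM in these libraries, and Lcp65Ag3 had 135, 32.0, 120 and 26.1 CPM. All 3 were higher in Glioma against Control (2.78, 2.39 and 2.19) and lower with slo RNAi against Glioma (−1.10, −1.21 and −1.90).

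They parted with Ca-alpha1T RNAi against Glioma, where Lcp65Ag1 and Lcp65Ag2 were higher at 1.08 (1.02 to 1.14) and 1.52 (1.44 to 1.61), and Lcp65Ag3 stood at 0.18 and was not called. Of the summed counts of the 3 copies, Lcp65Ag1 held 45.5% with Ca-alpha1T RNAi (44.7 to 46.3), 48.6% with slo RNAi (46.8 to 50.4), 38.8% in Glioma (37.8 to 39.8) and 30.4% in Control (28.4 to 32.5). Lcp65Ag3 held 32.1% with slo RNAi, 44.6% in Glioma and 52.5% in Control. The intervals of Lcp65Ag1 do not overlap between any of the 4 libraries. The antisense RNA gene asRNA:CR46005 overlaps Lcp65Ag3 and had 119 counts with Ca-alpha1T RNAi, 63 with slo RNAi, 96 in Glioma and 52 in Control, and its part in these shares was not tested.

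By scaled counts Lcp65Ac, Lcp65Ad and Lcp65Ae each had another order of libraries than either group. Lcp65Ac stood at 98.0 CPM with Ca-alpha1T RNAi, 38.8 with slo RNAi, 107 in Glioma and 53.7 in Control, and was lower with slo RNAi against Glioma at −1.46 (−1.55 to −1.36). Like Lcp65Ag3, Lcp65Ac was not called with Ca-alpha1T RNAi over Glioma, at −0.12. In Glioma over Control it stood at 0.99, just under the limit. On TPM it was highest with Ca-alpha1T RNAi, at 296 against 231 in Glioma. Lcp65Ad had 59, 47, 64 and 148 counts in the same order and was the only Lcp65A gene with its highest level in Control, at −1.05 (−1.50 to −0.62) for Glioma over Control. Lcp65Ae had 123, 118, 161 and 48 counts and was higher in all 3 other libraries than in Control, by 1.52 with Ca-alpha1T RNAi, 1.67 with slo RNAi and 1.89 in Glioma.

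Genes on either side of the 65A cluster differed in direction with Ca-alpha1T RNAi against Glioma. The neighbours Lcp65Ag2, Lcp65Ag1 and Lcp65Af, on the minus strand, were higher, and Lcp65Ab2 and Lcp65Ab1, at the other end on the plus strand, were lower. Between them Lcp65Ae, Lcp65Ad and Lcp65Ac stood at −0.37, −0.09 and −0.12, and on total counts at −0.09, 0.18 and 0.15, so their sign depends on the scaling. The Cpr65A genes, which encode further Rebers-Riddiford proteins, lie among and beside them. The 6 listed ones had ratios below 0 in that comparison, from −1.85 for Cpr65Ay to −0.59 for Cpr65Ax2, and Cpr65Au, next to Lcp65Ag3, was called lower at −1.65.

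**Figure D4:**
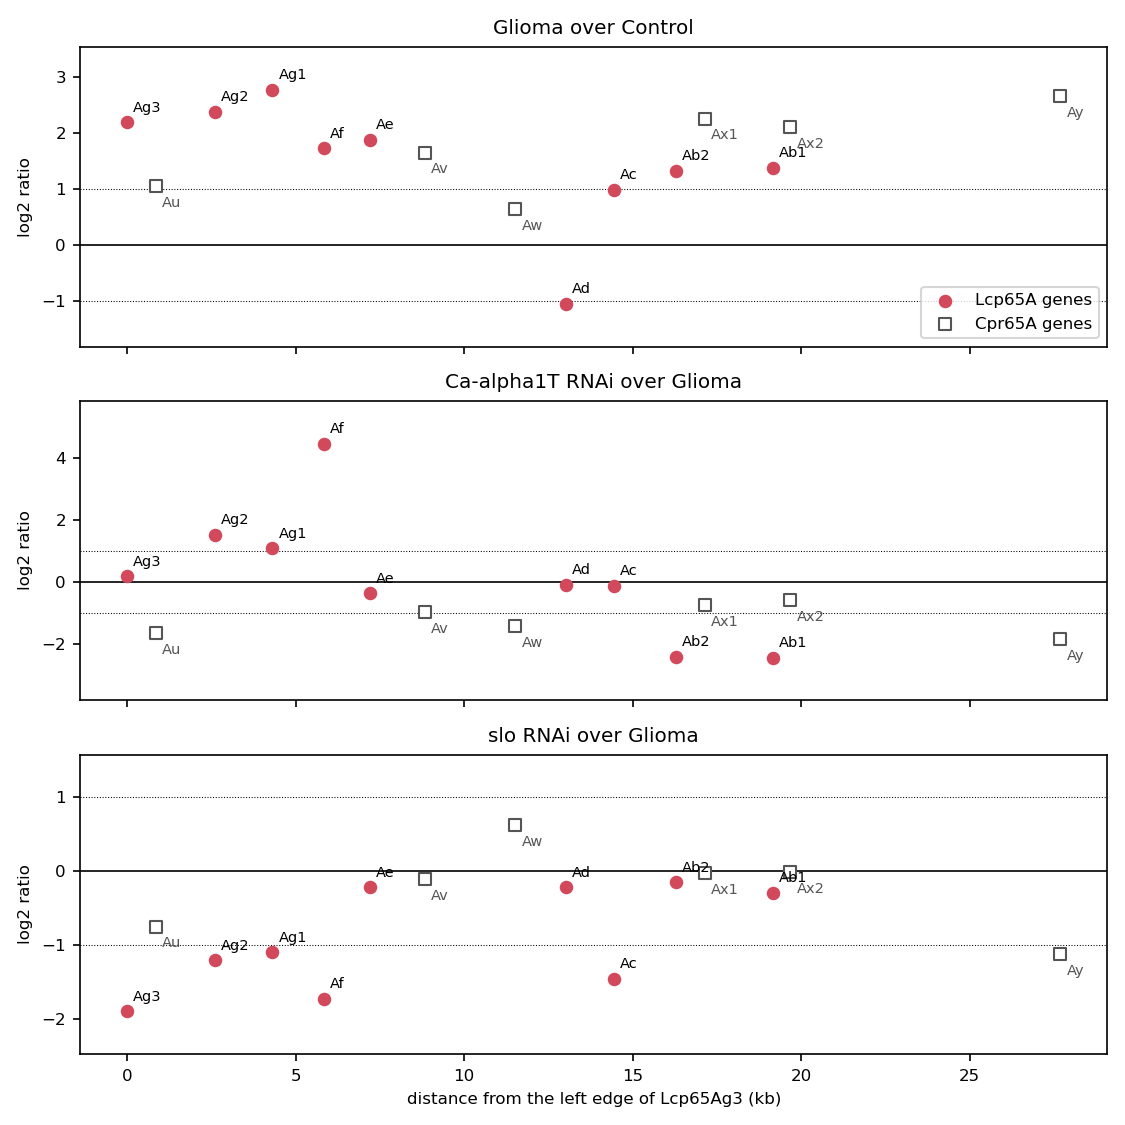
Log2 ratios of the 9 Lcp65A genes (filled circles) and of 6 Cpr65A genes (open squares) against their distance in kb from the left edge of Lcp65Ag3, for 3 comparisons; dotted lines mark 2-fold and labels give the last part of each symbol. With Ca-alpha1T RNAi over Glioma the 3 Lcp65A genes called higher lie in the left part and the 2 called lower at the right end, and the 6 Cpr65A genes lie below 0 throughout, while in Glioma over Control only Lcp65Ad lies below 0 among the genes drawn.

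The Ccp84A genes encode cuticle proteins of 191 to 221 residues and lie on arm 3R at 6686728 to 6704903, in the Antennapedia complex. All 4 had the same order of libraries at the ends, highest with Ca-alpha1T RNAi and lowest in Control. Ccp84Aa had 760 counts with Ca-alpha1T RNAi, 47 with slo RNAi, 152 in Glioma and 34 in Control. Ccp84Ab had 784, 86, 294 and 47 counts in the same order, Ccp84Ad had 918, 41, 192 and 35, and Ccp84Ag had 352, 68, 78 and 24. Log2 ratios for Ca-alpha1T RNAi over Control were 4.64 (4.16 to 5.20), 4.22 (3.81 to 4.69), 4.87 (4.40 to 5.42) and 4.02 (3.45 to 4.71) for the 4 genes.

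In Glioma over Control the Ccp84A ratios ran from 1.83 for Ccp84Ag to 2.78 for Ccp84Ab. With slo RNAi over Glioma 3 of the 4 were lower, from −1.99 (−2.52 to −1.51) for Ccp84Ad to −1.46 for Ccp84Aa, and Ccp84Ag stood at 0.03 (−0.46 to 0.52). The noncoding RNA gene lncRNA:CR33938 lies between Ccp84Ad and Ccp84Ab, and had 4693 counts with Ca-alpha1T RNAi, 3483 with slo RNAi, 3746 in Glioma and 6271 in Control. Its ratio was −0.59 in Glioma over Control, where the cuticle genes on both sides were higher. The homeotic genes lab and pb, the nearest listed genes outside the cluster, stood at 0.53 and 0.15 in that comparison.

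Edg78E and Edg91 are named as ecdysone-dependent genes, and Edg78E is known as a target of the nuclear receptor FTZ-F1 in prepupae. Edg78E had 62 counts with Ca-alpha1T RNAi, 3 with slo RNAi, 22 in Glioma and 21 in Control. It was higher with Ca-alpha1T RNAi over Glioma at 1.50 (0.79 to 2.29) and lower with slo RNAi over Glioma at −2.48 (−5.03 to −0.91), an interval kept wide by the 3 counts. Edg91 had 335, 161, 537 and 309 counts in the same order of libraries, with a log2 ratio of 0.95 in Glioma over Control, just under the limit, and −1.51 (−1.77 to −1.25) with slo RNAi over Glioma.

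Pcp, a pupal cuticle protein gene nested inside an intron of Gart on 2L at 7021682 to 7022470, was lower in both RNAi libraries. It stood at 64.0 CPM with Ca-alpha1T RNAi, 55.0 with slo RNAi, 139 in Glioma and 125 in Control, with log2 ratios of −1.12 (−1.19 to −1.05) and −1.34 (−1.42 to −1.26) for Ca-alpha1T and slo RNAi over Glioma. Its host Gart, a purine synthesis gene on the other strand, had 73.8, 55.2, 54.9 and 70.7 CPM in the 4 libraries and was not called in either comparison. On total counts Pcp stood at −0.85 with Ca-alpha1T RNAi over Glioma, short of the limit.

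The 10 Tweedle genes, whose products run from 197 to 388 residues, were all scarce, with no more than 33.1 TPM in any library. They differed in direction among themselves. TwdlL, TwdlM and TwdlO lie within 7621 bases of 3R, at 26619118 to 26626738. TwdlL had 417 counts with Ca-alpha1T RNAi, 11 with slo RNAi, 2 in Glioma and 13 in Control. TwdlM had 280, 5, 7 and 8 counts in the same order. TwdlO had 247, 260, 4 and 6 counts, high in both RNAi libraries and near the floor in Glioma and Control.

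All 3 were thus far higher with Ca-alpha1T RNAi than in Glioma, at 7.40 (5.86 to 10.78) for TwdlL, 5.25 (4.28 to 6.67) for TwdlM and 5.80 (4.60 to 7.86) for TwdlO. With slo RNAi over Glioma TwdlO was also higher, at 6.07 (4.88 to 8.14), while TwdlL stood at 2.40 (0.49 to 5.90) on 11 against 2 counts and TwdlM had too few counts to be detected. TwdlO therefore had nearly the same level in the RNAi libraries, with a log2 ratio of −0.28 (−0.54 to −0.02) for Ca-alpha1T RNAi over slo RNAi, in which TwdlM stood at 5.48 and TwdlL at 4.98. The nearest listed genes outside these 3, scrib and beat-VII, stood at 0.32 and 0.39 with Ca-alpha1T RNAi over Glioma.

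Twdlalpha, on the X at 16742847 to 16744365, was highest with Ca-alpha1T RNAi and lowest in Control, as the Ccp84A genes were. It had 1019 counts with Ca-alpha1T RNAi, 54 with slo RNAi, 138 in Glioma and 26 in Control, with log2 ratios of 2.90 (2.65 to 3.17) for Ca-alpha1T RNAi over Glioma and 2.54 (1.95 to 3.23) for Glioma over Control. The overlapping gene goe, on the other strand, stood at 0.03 and −0.24 in these comparisons. CG32568, which overlaps on the same strand, was not analysed here, and whether it shares reads with Twdlalpha was not tested. Twdlbeta, on 2R, had 93, 116, 254 and 75 counts in the same order of libraries and was highest in Glioma, being higher in Glioma over Control at 1.91 (1.54 to 2.31) and lower with Ca-alpha1T RNAi over Glioma at −1.42.

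TwdlF, TwdlG and TwdlV lie within 8814 bases of 3R, and TwdlF and TwdlV differed in direction with Ca-alpha1T RNAi over Glioma. TwdlF had 6 counts with Ca-alpha1T RNAi, 13 with slo RNAi, 48 in Glioma and 14 in Control, and TwdlG had 159, 156, 292 and 133. Both were higher in Glioma over Control, at 1.89 (1.05 to 2.91) and 1.28 (0.99 to 1.60). TwdlV had 62, 9, 12 and 26 counts and was not called in that comparison, at −0.935 (−2.08 to 0.08). With Ca-alpha1T RNAi over Glioma TwdlV was higher at 2.34 (1.49 to 3.42), TwdlF was lower at −2.88 (−4.49 to −1.75) and TwdlG was not called.

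TwdlE was lowest in Glioma and TwdlT with slo RNAi. TwdlE had 153 counts with Ca-alpha1T RNAi, 34 with slo RNAi, 10 in Glioma and 149 in Control, a log2 ratio of −3.68 (−4.83 to −2.82) for Glioma over Control and 3.89 (3.04 to 5.05) for Ca-alpha1T RNAi over Glioma. Its overlapping neighbour lectin-28C, on the other strand, had 892, 515, 246 and 652 counts and ratios of −1.25 and 1.88 in the same comparisons. TwdlT had 122, 51, 68 and 196 counts and was lower in Glioma over Control at −1.37 (−1.79 to −0.97). RYa-R, which overlaps TwdlT on the same strand, had 16, 24, 6 and 18 counts and a ratio of −1.36. Whether reads of these neighbours were shared was not tested.

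The larger Cpr family, with 44 listed genes, served as a comparison. In Glioma against Control 21 of its 43 detected genes were higher and 2 lower, 53.5% called beside 15.9% of all genes, with a median of 0.88. The largest ratios were those of Cpr31A at 2.93, Cpr65Ay at 2.66 and Cpr47Eg at 2.65, while Cpr35B stood at −2.62. Of 44 detected with Ca-alpha1T RNAi against Glioma 4 were higher and 16 lower, with a median of −0.83. These calls made up 45.5%, beside 11.8% of all genes. Cpr35B had 372 counts with Ca-alpha1T RNAi, 5 with slo RNAi, 4 in Glioma and 30 in Control, and Cpr62Bc had 659, 37, 86 and 42. These 2 Cpr genes were highest with Ca-alpha1T RNAi, as Lcp65Af and the Ccp84A genes were. Cpr47Ec and Cpr92A were lower with Ca-alpha1T RNAi than in Glioma at −2.85 and −2.67, the latter on 5 against 35 counts. Of 43 detected with slo RNAi against Glioma 1 was higher and 12 lower, with a median of −0.72, and 30.2% were called beside 11.2% of all genes. Cpr49Ah stood at 1.92 in that comparison. Cpr67Fb at −2.39, Cpr72Eb at −1.90 and Cpr92A at −1.84 rest on 5 against 33, 4 against 19 and 8 against 35 counts.

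Of 21 genes of the ecdysone response and cuticle timing 2 were higher and 10 lower in Glioma against Control, so that 57.1% were called beside 15.9% of all genes. Set against Glioma, with Ca-alpha1T RNAi 7 were higher and 2 lower, 42.9% beside 11.8%. With slo RNAi against Glioma 1 was higher and 1 lower, and this 9.52% lay below the 11.2% of all genes. The early ecdysone gene Eip78C had 1913 counts with Ca-alpha1T RNAi, 178 with slo RNAi, 256 in Glioma and 5060 in Control. The nuclear receptor gene Hr3 stood at 18.3 CPM with Ca-alpha1T RNAi, 3.85 with slo RNAi, 4.93 in Glioma and 53.8 in Control, and Hr4 at 25.7, 3.91, 8.10 and 60.4 CPM. Eip93F, a transcription factor gene of metamorphosis, had 12.6, 8.16, 2.97 and 27.8 CPM in these libraries. All 4 were highest in Control, whereas the receptor gene ftz-f1 had 48.4, 41.4, 34.8 and 19.3 CPM and was lowest there. ImpE3 and Cyp18a1 stood at −0.84 and −0.78 for slo RNAi over Glioma and were not called. The part of the ecdysone response, or of developmental stage, in the values of the cuticle genes was not tested.

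Of 12 listed tanning genes, which pigment and harden cuticle, 1 was higher and 5 lower in Glioma against Control. Over all detected genes 10.1% were higher and 5.81% lower in that comparison. The gene e, which encodes the enzyme joining beta-alanine to dopamine, had 3600 counts with Ca-alpha1T RNAi, 44 with slo RNAi, 87 in Glioma and 28819 in Control. The first enzyme gene of the catecholamine pathway, ple, had 11242, 786, 2828 and 52161 counts in the same order, and the b gene, which supplies beta-alanine, had 1456, 293, 651 and 9004. These 3 were highest in Control, and the y gene, needed for black pigment, was lowest there with 774, 876, 205 and 15 counts. In the Ca-alpha1T RNAi library against Glioma 5 of the 12 were higher and 1 lower, beside 4.93% and 6.88% of all detected genes. Log2 ratios were 5.38 for e, 2.01 for ple, 1.94 for y and 1.20 for Pu. In the slo RNAi library against Glioma 1 was higher and 2 lower, 25.0% called beside 11.2% of all genes. Ratios there were 2.32 for y, −1.62 for ple and −1.02 for Ddc, and t stood at −0.99.

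Among 28 listed genes of chitin and cuticle assembly 8 were higher and none lower in Glioma against Control, with a median of 0.55, and 28.6% were called beside 15.9% of all genes. The chitinase gene Cht9 had 97 counts with Ca-alpha1T RNAi, 9 with slo RNAi, 395 in Glioma and 5 in Control. Its log2 ratio was 6.31 for Glioma over Control, beside 1.53 for the chitin-binding protein gene obst-E, 1.26 for Idgf3 and 1.21 for Idgf2. With Ca-alpha1T RNAi against Glioma none was higher and 2 were lower, Cht9 with an interval of −2.34 to −1.68 and obst-E at −1.51, while obst-F and Cda9 stood at −0.95 and −0.89. Those 7.14% lower lie close to the 6.88% of all genes. With slo RNAi against Glioma 1 was higher and 2 lower, 10.7% called beside 11.2% of all genes, with Cht9 at −5.16, Cda9 at −1.15 and Idgf5 at 1.01, and obst-F stood at −0.92.

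Of 18 listed genes of the apical epidermal matrix 3 were higher and 6 lower in Glioma against Control, beside 10.1% and 5.81% of all detected genes. The list was led by m at −2.24, neo at −1.95, dyl at −1.82 and mey at −1.81. With Ca-alpha1T RNAi against Glioma 4 were higher and 2 lower, 33.3% called beside 11.8% of all genes. The largest ratios were those of Vajk1 and dyl at 2.18 each, Vajk3 at −1.89 and Vajk2 at −1.84. With slo RNAi against Glioma 1 was higher and 1 lower, 11.1% called beside 11.2% of all genes. The gene dyl had 24 counts with Ca-alpha1T RNAi, 242 with slo RNAi, 5 in Glioma and 21 in Control, a log2 ratio of 5.68 for slo RNAi over Glioma, in which sha was lower at −1.05 and Vajk1 and Vajk3 stood at −1.09 and −0.91.

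Markers of epidermis and of other tissues differed between libraries as well. The summed level of the 10 epidermal markers was 780 CPM with Ca-alpha1T RNAi, 933 with slo RNAi, 829 in Glioma and 1043 in Control. In Glioma against Control 1 of the 10 was higher and 4 lower, beside 10.1% and 5.81% of all detected genes. The higher gene sha and the lower genes m, mey, neo and nyo are also in the apical matrix list. Their calls are therefore the same values as in that list and not a separate observation. The median of the 10 markers was −0.70, while the cuticle family's median was above 0. The epidermal transcription factor gene grh stood at 135 CPM with Ca-alpha1T RNAi, 125 with slo RNAi, 92.3 in Glioma and 154 in Control, and vvl at 79.6, 65.4, 52.3 and 73.5 CPM. The 7 markers of the trachea, which is also lined with cuticle, summed to 1366, 1547, 1987 and 1437 CPM in the order Ca-alpha1T RNAi, slo RNAi, Glioma and Control.

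The 10 muscle markers summed to 20630 CPM with Ca-alpha1T RNAi, 33317 with slo RNAi, 54421 in Glioma and 15504 in Control. All 10 were higher in Glioma against Control, beside 10.1% of detected genes. The 6 salivary gland markers summed to 1319, 9782, 956 and 21986 CPM in the same order, the 6 fat body markers to 14029, 21649, 8822 and 16509 CPM, and the 6 gut markers to 543, 263, 3974 and 460 CPM. Summed levels of the 7 glial markers were 884, 860, 1005 and 866 CPM, those of the 6 neuronal markers 417, 435, 301 and 464 CPM, and those of the 6 eye-antennal disc markers 283, 256, 206 and 296 CPM. In Glioma against Control all 6 gut markers were also higher and all 6 salivary gland markers lower, beside 10.1% and 5.81% of detected genes. Of the fat body markers 3 were lower, of the glial 2 higher and of the neuronal 1 lower, and no disc marker was called. The part of tissue makeup in the results on cuticle genes was not tested.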

How the data were processed

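The table gives whole-number counts for 11880 genes in 4 libraries, as deposited and not normalized, together with FPKM and TPM levels that the authors derived per library, per the file headers. Tools in the submitters' processing notes, which give no roles, are StringTie 2.1.3b, HISAT2 2.1.0, Trimmomatic 0.38, FastQC 0.11.7 and edgeR, and the build is dm6. The sources used here do not say whether reads were counted by strand. A further 8 columns of per-sample normalized values were not used.

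Counts were scaled with TMM over the 4 libraries (edgeR 4.0.16, R 4.3.3), with factors of 1.10 for Ca-alpha1T RNAi, 0.939 for slo RNAi, 0.909 for Glioma and 1.06 for Control. Log2 ratios used a prior count of 0.5, and intervals were exact conditional binomial (Python 3.11.15, scipy 1.17.1), tested on simulated data. All genes were computed for 6 pairs of libraries. All listed members are named, and the 4 detected members of each further list with the largest ratios in each of the 3 comparisons of Glioma with Control and of RNAi with Glioma. Others were chosen after their values were seen, namely the overlapping and flanking genes, the Cpr65A genes, the RNAi targets, grh and vvl; ftz-f1 met the rule against Control. The members and lists were chosen with earlier results of these data known. Positions come from the Ensembl annotation of dm6 coordinates. Alternatives were DESeq2 1.42.0 size factors, total counts, upper-quartile factors, other filters, folds and priors, and the authors' FPKM and TPM.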

Additional observations from a re-analysis of the deposited data

How the results depend on the processing

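No paired analysis was possible because each group is 1 library, and none could be left out. Under the 9 other settings computed per gene no called ratio of the 102 genes recomputed changed sign, which could hardly occur. A called ratio is at least 2-fold, and the filter and fold settings leave the ratios themselves unchanged. Of 5508 gene values under these settings, 1091 fell outside the counting interval of the main setting. The planned summing of copies with identical proteins was not run, as no protein sequences were used here; copies summed by symbol, chosen after seeing the data, took its place. In Glioma against Control the member median was 1.10 on total counts, 1.37 with upper-quartile factors, 1.28 without a filter, 0.74 on FPKM, 0.86 on TPM and 1.24 with copies summed, and a 4-fold limit left 7 higher and 2 lower, FPKM 2 lower. With Ca-alpha1T RNAi against Glioma the median was 0.45 on total counts, 0.52 at 50 counts or more, 0.47 on FPKM, 0.66 on TPM and 0.38 with copies summed, and lower members numbered 4 at 4-fold, 6 on FPKM and 6 on TPM. With slo RNAi against Glioma it was −0.31 without a filter and with copies summed, −0.32 on FPKM and −0.27 on TPM; 1 member was higher at 50 counts or more, on FPKM and on TPM, and 1 was lower at 4-fold and 8 on TPM. Against Control the Ca-alpha1T RNAi median was 1.14 at 50 counts or more, 0.70 on FPKM, 0.96 on TPM and 0.68 with copies summed, with 1 lower at 4-fold and 2 on TPM. Against Control slo RNAi had 1 higher and 1 lower member at 4-fold, 3 higher on FPKM and 4 on TPM. In Ca-alpha1T RNAi against slo RNAi 4 were lower at 4-fold. The other 143 of 180 list values moved little, and the cause of these shifts was not tested. On total counts the median over all genes stood at 0.26 with Ca-alpha1T RNAi against Glioma, where Lcp1 and Pcp lost their call. Genes with few counts, such as TwdlL, TwdlM, TwdlO and Edg78E, have the widest intervals.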
